A study of Mus musculus with 4 samples.

Results

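The genotype difference under TNF-α was read from 2 of the 4 arrays of the series, the array labelled CKO with TNF-α and the array labelled Control with TNF-α, as the former minus the latter. Of 19818 autosomal genes with a symbol, 13450 were read well above background on both arrays, and these carry the results. The study asked what the NF-κB subunit Rela does in cartilage. Primary chondrocytes came from 6-day-old C57BL/6J mice of the genotypes Prrx1-Cre;Relafl/fl (CKO) and Relafl/fl (Control), and were kept for 3 days with 10 ng/mL TNF-α or without it. Both genotypes carry the floxed Rela alleles, and only the CKO mice carry Cre, driven by a Prrx1 promoter fragment that is active in limb mesenchyme. Each combination of genotype and treatment was hybridised once to a 1-colour Agilent expression array, and how many animals went into a culture is not given in the sources used here.

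With 1 array per group there is no replicate check, so no test was run and no p-value is given. The number of arrays limits the precision of every difference below. A signal is the spot intensity divided by the 75th percentile of its array, so that a signal of 1 is that percentile, and differences are on the log2 scale. A gene was called lower or higher on the array labelled CKO when it differed by at least 1 (2-fold) and was well above background on both arrays with TNF-α. For probes printed 10 times on each array, the spots gave a technical SD of 0.14 for a difference between 2 arrays, which leaves out all spread between cultures and animals.

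Features of the arrays bear on these results. The array signal does not show the deletion of Rela: its signals were 28.4 on the Control array and 34.0 on the array labelled CKO without TNF-α, and 34.9 and 40.2 with TNF-α. The difference with TNF-α was thus 0.21, above and not below 0, and where its 1 probe lies relative to the floxed part of the gene was not known here. Sex-linked genes also differed between the genotypes: Xist was well above background on the Control arrays only and the signal of the Y-linked Ddx3y exceeded the Control value with TNF-α by 1.70. Genotype, sex and culture cannot be told apart in these arrays. Patches of neighbouring spots were bright on 1 array and on no other. They held 7.18% of the spots on the Control array with TNF-α and 1.04% on the array labelled CKO with TNF-α.

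The label primary chondrocyte was checked against cartilage matrix genes. Of 29 such genes on the array, 28 were well above background on both arrays with TNF-α. The signal of Col2a1, the main collagen of cartilage, was 597 on the Control array and 584 on the array labelled CKO without TNF-α, and 610 and 608 with TNF-α. Of 23 leukocyte genes measured, 16 were well above background on both arrays with TNF-α, the brightest being the integrin subunit Itgam at 32.4 and 31.8 and H2-Ab1 at 10.3 and 6.62 on the Control array and the array labelled CKO, and of 10 endothelial genes 4 were, with the receptor Kdr at 17.9 and 20.5. These levels are those of the brightest probes, which make up most of the summed signals given below. A second probe of Kdr was not well above background, and a second probe of Itgam was at 0.0726 and 0.110. The defining leukocyte genes Ptprc and Spi1 and the endothelial gene Cdh5 were not well above background on any array. RNA of whole cultures was measured, so fewer cells of a type and less RNA per cell cannot be told apart.

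Rela, also called p65, is the transactivating subunit of the most common NF-κB dimer. TNF-α binding to its receptor leads to the breakdown of IκB inhibitors, after which the dimer enters the nucleus and activates genes for chemokines, acute-phase proteins, adhesion molecules and its own inhibitors. In cartilage the pathway is known for switching on enzymes that degrade the matrix.

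In NF-κB target genes the dimer binds a site of 10 bases, the NF-κB consensus. It was searched on both strands of the promoter windows that RefSeq's GRCm38.p6 annotation gives, from 250 bases before to 50 after the start of each gene, and overlapping matches were each counted. The 3 windows below are those of the genes with the largest differences, among the named genes lower on the array labelled CKO, that were searched and hold a match, and capitals mark the matches. Of the lower genes described, Hp, Cfb, Mmp19, Lbp, Ccl5, Htra4, Cxcl5, Ccl2, Ccl7, Rflna, Cd74, Parp14, C4b and Sfrp1 were not searched. They are Chil1 (chr1:134181906-134182205, plus strand), Cxcl1 (chr5:90890995-90891294, plus strand) and Tnfaip3 (chr10:19015361-19015660, minus strand), each printed 5′ to 3′ along its gene.
Chil1: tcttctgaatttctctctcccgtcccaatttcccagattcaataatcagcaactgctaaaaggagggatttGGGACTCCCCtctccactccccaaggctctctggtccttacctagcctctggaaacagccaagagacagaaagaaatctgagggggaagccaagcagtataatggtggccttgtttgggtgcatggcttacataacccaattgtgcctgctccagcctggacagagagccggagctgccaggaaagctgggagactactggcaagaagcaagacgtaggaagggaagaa
Cxcl1: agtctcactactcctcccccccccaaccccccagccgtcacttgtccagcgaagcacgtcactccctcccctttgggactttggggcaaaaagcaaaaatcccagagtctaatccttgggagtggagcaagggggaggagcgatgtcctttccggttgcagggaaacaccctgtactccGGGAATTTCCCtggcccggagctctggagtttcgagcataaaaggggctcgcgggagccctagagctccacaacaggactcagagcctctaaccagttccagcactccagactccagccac
Tnfaip3: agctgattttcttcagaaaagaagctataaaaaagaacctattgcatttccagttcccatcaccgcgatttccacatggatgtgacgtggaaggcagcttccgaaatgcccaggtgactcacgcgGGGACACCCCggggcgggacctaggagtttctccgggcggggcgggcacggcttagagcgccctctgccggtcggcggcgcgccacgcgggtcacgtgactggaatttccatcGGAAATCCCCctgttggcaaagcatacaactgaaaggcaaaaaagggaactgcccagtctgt
Counted from the start of the gene, the match of Chil1 begins at position -179. Those of Cxcl1 overlap on opposite strands at -71 and -70, and those of Tnfaip3 lie at -125 and -12. A second window of Tnfaip3 (chr10:19011914-19012213, minus strand) held 0 matches. Over all 25748 autosomal genes with a window, 5.22% hold a match, and 6.34% of the 10694 with a window that were well above background on both arrays with TNF-α. Outside patches, the share was 11.3% of the 62 genes lower on the array labelled CKO and 11.1% of the 72 genes higher there, so both directions held it about equally often. A match is a run of letters in a short window, and the windows of Mmp3, C3, Cxcl12 and Icam1 held none.

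On the array labelled CKO, 168 autosomal genes were lower and 120 were higher with TNF-α, which is 1.25% and 0.892% of the genes read. The median over all 13450 genes was 0.05, and the middle 90% lay between -0.46 and 0.50. More genes thus lay above 0 than below it, but the share is not given here. Without scaling the median was -0.01. Group counts by sign below have no such share beside them. The genes just past the limit were Psmb9 at -1.004 and Ankrd1 at 1.001. Without scaling of the arrays the counts were 203 and 90, and from the table of the authors they were 201 and 92, so that the share of higher genes among those called went from 41.7% to 30.7% and 31.4%. With quantile normalization 159 were lower and 133 higher (45.5% higher). Patches touched 84 of the 168 lower genes and 16 of the 120 higher genes, compared with 9.01% of all genes. Leaving out the spots in patches gave 86 lower (0.68%) and 111 higher genes (0.878%). The genes named below lie outside patches on both arrays with TNF-α unless a patch is mentioned. The members of every gene group were chosen with earlier results of these data known. Group counts and medians below therefore describe those choices.

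**Figure D1:**
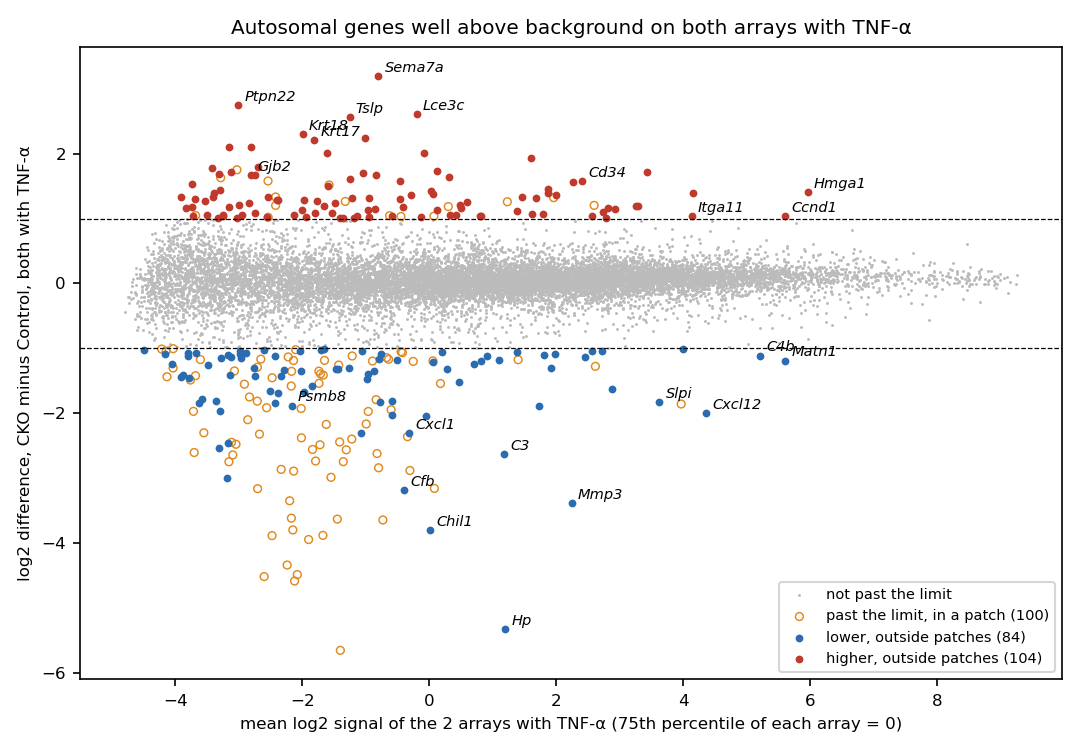
The y axis is the log2 difference between the arrays with TNF-α, CKO minus Control, and the x axis the mean log2 signal of the 2 arrays; each point is 1 of 13450 autosomal genes and dashed lines mark the limit of 1. Of the genes past the limit, 84 lower and 104 higher lie outside patches (filled), and 100 have a spot in a patch (open), most of them among the lower genes with low signals.

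Acute-phase and complement genes were the lowest of the groups. Most of these encode secreted proteins that liver and other tissues make in inflammation. Of 20 genes read on both arrays, 9 were lower on the array labelled CKO, 0 were higher, and the median was -0.96 against 0.05 over all genes. Haptoglobin (Hp), which binds free haemoglobin, had a signal of 2.11 on the Control array and 0.478 on the array labelled CKO without TNF-α, and of 14.5 and 0.363 with TNF-α. The Control array with TNF-α thus stood far above the other 3, and the genotype difference with TNF-α was -5.32 (40.1-fold), the largest fall among genes read on both arrays and outside patches. Its spot lies in a patch on the Control array without TNF-α, so the value of 2.11 is uncertain. Complement factor B (Cfb), part of the alternative pathway, was at 0.502 and 0.209 without TNF-α and at 2.29 and 0.253 with it, a difference of -3.18, and its spot lies in a patch on the array labelled CKO without TNF-α. The central complement component C3 was at 1.09 and 0.788 without TNF-α and at 5.66 and 0.914 with it, a difference of -2.63. Only the Control array with TNF-α was high for Cfb and C3. A second probe of C3, printed 10 times, gave -4.54, with SDs between its spots of 0.03 and 0.06 on the 2 arrays. Lbp, which carries bacterial lipopolysaccharide to its receptor, differed by -2.05 (signals of 1.97 and 0.475 with TNF-α). The other 5 called genes were Lrg1 at -1.85, Serpina3f at -1.82, Saa1 at -1.13, C4b at -1.11 and C1s1 at -1.04. Lcn2, an iron-binding protein of innate defence, was at -0.97 and C1ra at -0.44, and neither passed the limit. Without scaling and in the table of the authors 11 of the 20 were lower, Lcn2 among them.

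Serum amyloid A3 (Saa3) was not read on both arrays and is named because of its value. Its signal was 10.2 on the Control array with TNF-α and not well above background on the other 3 arrays, so the array labelled CKO was at least 343-fold lower. Its 1 spot lies in no patch. The same pattern was seen for Il6, the cytokine that drives acute-phase genes in liver, with a signal of 0.389 on the Control array with TNF-α and a value at least 13.1-fold lower on the array labelled CKO.

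Chemokines, which attract leukocytes, split by member. Of 16 read on both arrays, 6 were lower and 0 higher, with a median of -0.27. The neutrophil attractant Cxcl1, whose window is printed above, was at 0.221 and 0.129 without TNF-α on the Control array and the array labelled CKO, and at 1.78 and 0.361 with TNF-α, a difference of -2.30 (4.93-fold). Ccl5 differed by -2.02 with TNF-α (1.34 and 0.330) and by -1.61 without it (0.127 and 0.0417). Cxcl12, which binds Cxcr4, was bright on all arrays, at 25.8 and 12.9 without TNF-α and at 40.8 and 10.3 with it. It was lower on the array labelled CKO by -1.99 with TNF-α, and its second probe gave -2.03. Without TNF-α the difference was -0.999, short of the limit. Cxcl5 differed by -1.89. The monocyte attractants Ccl2 and Ccl7 were at -1.86 and -1.62; 1 or more of the 10 spots of Ccl2 lies in a patch on the Control array with TNF-α, and its value without those spots was -1.87. Without TNF-α, Ccl7 differed the other way, by 1.52 (signals of 1.18 and 3.40), its spot lying in a patch on the array labelled CKO. Cxcl14 was at -0.31, and Cx3cl1, the membrane-bound chemokine, was at 0.74 with signals of 6.97 and 11.7 with TNF-α.

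TNF-α raised Cxcl1 by 3.00 on the Control arrays and by 1.48 on the arrays labelled CKO. The corresponding values were 3.39 and 2.98 for Ccl5, 2.64 and 1.32 for Cxcl5, and 0.66 and -0.33 for Cxcl12. These changes with TNF-α share their arrays with the genotype difference and are no separate evidence.

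The pathway's own components differed less. Of 27 genes of NF-κB signalling and feedback read on both arrays, 1 was lower, 1 was higher, and the median was -0.11. The lower gene was Tnfaip3 (A20), the ubiquitin-editing inhibitor of the pathway, whose window is printed above. It was at 0.254 and 0.241 without TNF-α and at 0.874 and 0.343 with it, so only the Control array with TNF-α stood out, by -1.35. The higher gene, the adaptor Traf1 at 1.04, has its spot in a patch on the Control array with TNF-α. The group as a whole was split, with 14 genes below and 13 above 0. None of Bcl3 at -0.72, the inhibitor Nfkbia (IκBα) at -0.71 and Relb at -0.65 passed the limit. The signalling adaptor Traf2 was at -0.16, and the inhibitor-of-apoptosis genes Birc2 and Birc3 were at -0.33 and 0.03, the last within the technical SD.

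Interferon response genes lay mostly below 0. Of 31 read, 5 were lower, 0 higher and 27 below 0, with a median of -0.50. Across the alternatives between 23 (of 26 read) and 29 (of 31) were below 0. Gbp2, a GTPase induced by interferon, was at 0.296 and 0.302 without TNF-α and at 1.25 and 0.354 with it, a difference of -1.82. The ADP-ribosyltransferase Parp14 differed by -1.33, Ifit1 by -1.08 (-0.87 and -0.55 with normexp, where 3 of the 31 genes were lower) and the ubiquitin-like modifier Isg15 by -1.05 (signals of 3.74 and 1.81). Isg15 differed by -1.10 without TNF-α as well, and its second probe gave -0.93 with TNF-α, short of the limit, as was the mean of its probes (-0.99). Ifi44, at -1.95, has its spot in a patch on the Control array with TNF-α. The transcription factor Irf1 was at -0.30 and the RNA sensor Ddx58 at -0.28.

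In MHC class I antigen presentation, 2 of 18 genes were lower, 0 were higher and 15 were below 0, with a median of -0.34. Both lower genes are subunits of the immunoproteasome, which cuts peptides for display. Psmb8 had signals of 0.165 and 0.0720 without TNF-α and of 0.427 and 0.116 with it (-1.88), and Psmb9 had 0.448 and 0.224 with it (-1.004), short of the limit with quantile normalization and with normexp (-0.89 and -0.73). The loading factor Tapbp was at -0.84, the transporter subunit Tap2 at -0.72, and the light chain B2m at -0.34 with signals of 64.5 and 51.0.

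**Figure D2:**
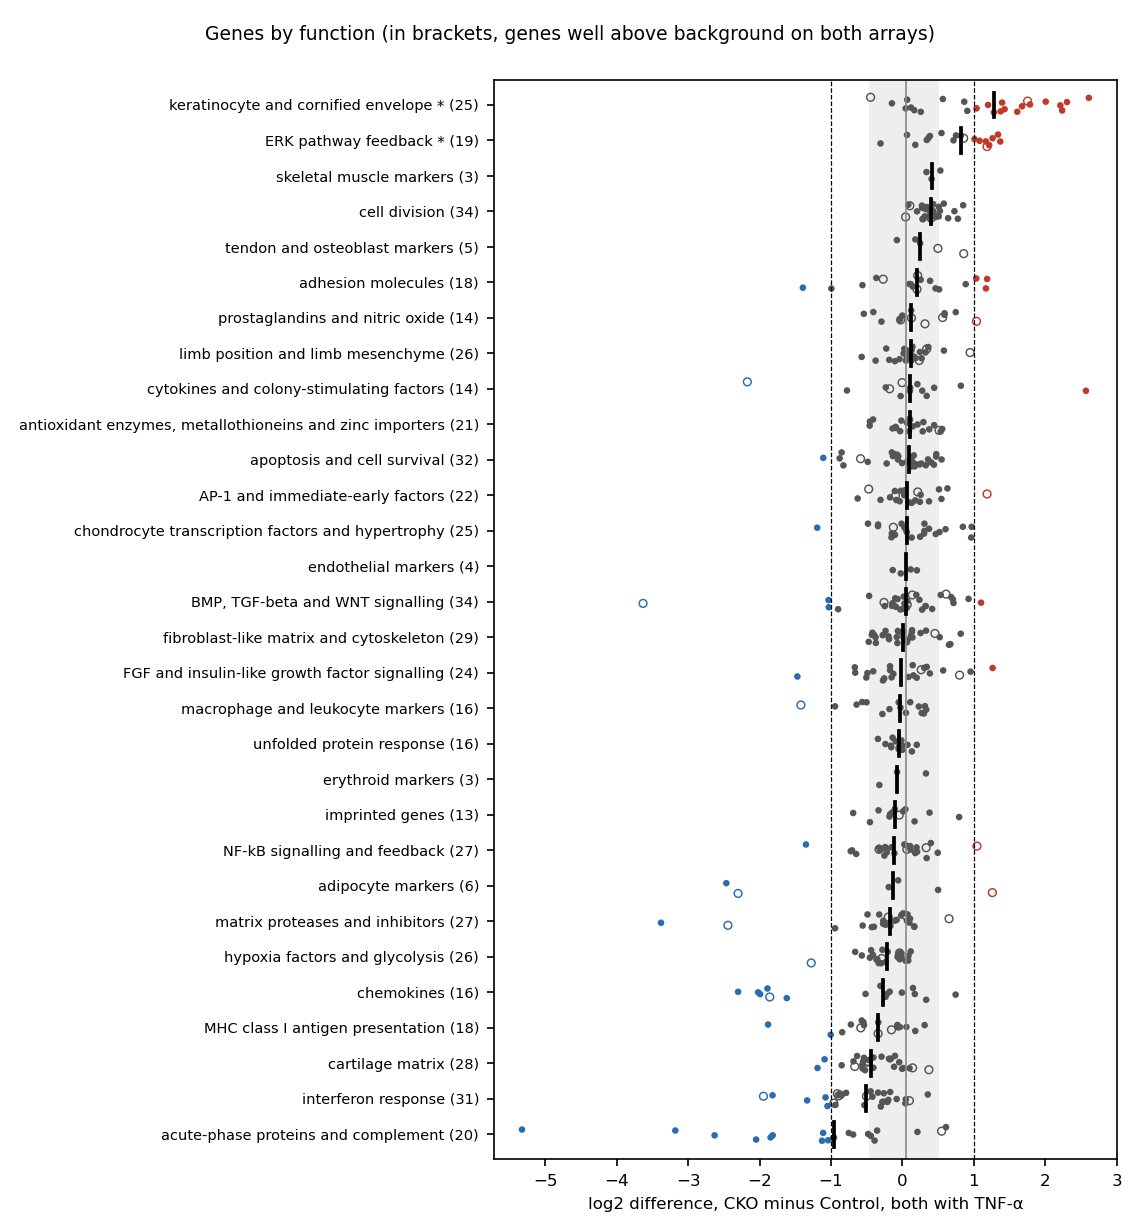
Each row is a group of genes, each point the log2 difference of 1 gene between the arrays with TNF-α (CKO minus Control), and each thick bar the group's median; open points have a spot in a patch, dashed lines mark the limit of 1, the grey line and band the median and middle 90% of all genes, and asterisks groups assembled after the values were seen. Acute-phase genes lie lowest with a median of -0.96, cell division genes all lie above 0, and the keratinocyte genes have a median of 1.28. The groups without asterisks were also chosen with earlier results of these data known.

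Matrix proteases and their inhibitors were represented by 1 large difference outside patches. Of 27 read, 2 were lower and 0 higher, with a median of -0.17. Stromelysin-1 (Mmp3), which cleaves proteoglycans and activates other proteases, was at 0.616 and 0.249 without TNF-α and at 15.3 and 1.47 with it. It was lower on the array labelled CKO by -3.38 (10.4-fold) with TNF-α and by -1.30 without it, with values between -3.44 and -3.25 across the alternatives with TNF-α. Mmp19, at -2.44, has its spot in a patch on the Control array with TNF-α. The aggrecanases Adamts5 and Adamts4 were at -0.27 and -0.56, and the collagenase Mmp13 at -0.17; none passed the limit. Timp2 and Timp3, which inhibit such proteases, were at 0.10 and 0.11, and a second probe of Timp2 gave 0.35. Outside this group, Chil1, a chitinase-like protein secreted by inflamed chondrocytes, was at 0.637 and 0.244 without TNF-α and at 3.76 and 0.270 with it, a difference of -3.80 (13.9-fold). The protease inhibitor Slpi was bright, at 14.04 and 5.67 without TNF-α and at 23.3 and 6.56 with it, and was lower on the array labelled CKO in both pairs (-1.82 with TNF-α and -1.31 without). The fifth of the largest falls outside patches, the olfactory receptor gene Olfr1311 at -3.00 (-1.39 with normexp), was not well above background on either array without TNF-α, and 2 of the spots around its own on the Control array with TNF-α were bright on that array alone.

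Cartilage matrix genes were below 0 in 24 of 28 cases, 2 were lower past the limit and 0 higher, and the median was -0.44. Across the alternatives between 21 (of 23 read) and 25 (of 28) were below 0. Without TNF-α the median was -0.56. Matn1 (matrilin-1), a linker of the matrix network, was at 90.4 and 25.0 without TNF-α and at 73.8 and 32.4 with it, so the arrays labelled CKO were lower in both pairs, by -1.19 with TNF-α and -1.86 without. Matn4 differed by -1.09 with TNF-α and -1.24 without, and its second probe gave -0.94 with TNF-α, short of the limit. The aggrecan gene Acan was at -0.48, Mia at -0.85, Comp at -0.29 and Col2a1 at -0.01. The regulator of the fate, Sox9, was at -0.13.

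Among transcription factors and hypertrophy genes of chondrocytes, 1 of 25 was lower, 0 were higher and the median was 0.06, or about 0 without scaling. The lower gene was Runx1, at -1.19 with signals of 2.66 and 1.16, and its second probe gave -0.57. Of the 25 genes, 10 were below 0 and 15 above. Among genes of hypertrophic and mineralising cartilage, none of which passed the limit, Ibsp was at 0.97, the collagen Col10a1 at 0.96 with signals of 7.26 and 14.2, the signal Ihh at 0.85 and Spp1 at 0.37. Without TNF-α the values were 1.13 for Ibsp, 0.83 for Col10a1 and 0.52 for Ihh. Of the 29 fibroblast-like matrix and cytoskeleton genes read, 0 passed the limit in either direction, the median was 0.01 (below 0 under each other scaling) and Fn1 was at -0.06.

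Cell division genes differed little but one way. Of 34 read, 0 passed the limit and 34 were above 0, between 0.04 and 0.85, with a median of 0.40 against 0.05 over all genes. Across the alternatives, which read 32 to 34 of these genes, 32 to 34 were above 0 and at most 1 below. Without TNF-α the median was 0.28. The replication-licensing gene Cdc6 was at 0.85 and the ribonucleotide reductase subunit Rrm2 at 0.73, with Rrm2 signals of 13.8 and 20.3 without TNF-α and of 13.6 and 22.6 with it. Pcna, the sliding clamp of DNA polymerase, was at 0.43 and the helicase subunit Mcm6 at 0.38. Apart from these lists, the G1 cyclin Ccnd1 was called higher at 1.03, with signals of 34.2 and 70.0 with TNF-α, and so were the chromatin proteins Hmga1 at 1.41 and Hmga2 at 1.57.

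Like most genes read, those of apoptosis and survival, a concern of the study, lay within the limit, with 1 exception. Of 32 read, 1 was lower and 0 higher, beside 1.25% and 0.892% of all genes, and the median was 0.09. The lower gene was the inflammatory caspase Casp4, at 1.97 and 1.32 without TNF-α and at 5.15 and 2.39 with it (-1.11), and its second probe gave -1.12. Pik3r1, a regulatory subunit of phosphoinositide 3-kinase, was at -0.85, the death receptor Fas at -0.83 and the survival factor Bcl2l1 at 0.47. Bax was at 0.12. Epas1 (HIF-2α), which the study also follows, was at -0.07 by its brightest probe and at 0.15 and 0.47 by the others.

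Adhesion molecules went both ways, with 1 of 18 lower and 3 higher and a median of 0.21; 2 were higher under each other scaling and 1 with normexp. Icam1, which binds leukocyte integrins, was at 0.434 and 0.268 without TNF-α and at 0.827 and 0.315 with it (-1.39). The collagen-binding integrins Itga2 and Itga11 were higher at 1.17 and 1.03. Itga11 had signals of 12.6 and 27.6 without TNF-α and of 12.3 and 25.1 with it, high on both arrays labelled CKO. The hyaluronan receptor Cd44 was higher at 1.18, with signals of 6.33 and 14.4 with TNF-α. Vcam1 was just short of the limit at -0.995 with signals of 2.81 and 1.41. Without scaling and in the table of the authors 2 of the 18 were lower, Icam1 and Vcam1.

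The largest rises outside patches were of another kind. Sema7a, a membrane-anchored semaphorin that binds integrins, was at 0.220 and 0.256 without TNF-α and at 0.189 and 1.74 with it, so the array labelled CKO with TNF-α stood alone, by 3.20 (9.18-fold). The lymphoid phosphatase Ptpn22 differed by 2.74 (signals of 0.0479 and 0.320), or by 1.42 with normexp. Tslp, an epithelial cytokine and the only member of the cytokine group higher on the array labelled CKO, was at 0.262 and 0.122 without TNF-α and at 0.172 and 1.02 with it. It was higher with TNF-α by 2.57 and lower without it by -1.10, and this contrast was not tested. Of the 14 cytokine genes read, 1 was also lower, Tnfsf11 (RANKL) at -2.17, with its spot in a patch on the Control array with TNF-α, and the median was 0.11. The highly expressed decoy receptor Tnfrsf11b was at 0.34 and the interleukin 33 receptor Il1rl1 at 0.44.

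The other 2 of the 5 largest rises were Lce3c, a late cornified envelope protein, and the keratin Krt18. Because of them, a group of keratinocyte and cornified envelope genes was assembled after the values were seen, and its counts describe that choice. Of its 25 genes read on both arrays, 15 were higher and 0 lower, with a median of 1.28 and a median of 0.49 without TNF-α. With normexp background correction 10 were higher and the median was 0.83. Lce3c was at 0.358 and 0.857 without TNF-α and at 0.353 and 2.15 with it (2.61). Krt18 was at 0.108 and 0.115 without TNF-α and at 0.113 and 0.558 with it (2.30). Krt18 was thus high on 1 array only, whereas Lce3c was higher on both arrays labelled CKO. Krt17 was at 2.21, the connexin Gjb2 at 1.67, and the secreted Slurp1 at 1.39 with signals of 2.26 and 5.95 with TNF-α. The defining genes of basal keratinocytes were not past the limit: Krt5 was at 0.07, Krt14 at 0.26 and Trp63 at 0.17, and Krt1, Cdh1 and Epcam were not well above background on any array. The summed signal of all 47 genes measured, 20 of them well above background on neither array with TNF-α, was 35.7 on the Control array and 54.4 on the array labelled CKO with TNF-α, and 36.0 and 48.0 without it. The part of keratinocytes in these values was not tested.

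A group of ERK pathway feedback genes, which that kinase cascade switches on and which include its inhibitors, was also assembled after the values were seen. Of 19 read, 8 were higher and 0 lower, with a median of 0.82 and a median of 0.12 without TNF-α. With normexp background correction only 3 were higher and the median was 0.57. The transcription factor Etv4 was at 0.580 and 0.749 without TNF-α and at 0.510 and 1.32 with it (1.37). The phosphatase Dusp6, which switches ERK off, was at 4.67 and 4.79 without TNF-α and at 4.88 and 9.82 with it (1.01), its spot lying in a patch on the array labelled CKO without TNF-α. For both genes the array labelled CKO with TNF-α was the high one. The EGF receptor ligands Hbegf and Ereg were higher at 1.17 and 1.21, and the inhibitor Spry4 at 1.26. Of 22 AP-1 and immediate-early genes read, 1 was higher and 0 lower, with a median of 0.06, or about 0 without scaling: Fosl1 at 1.18, whose spot lies in a patch on the Control array with TNF-α. Cebpd was at -0.17.

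**Figure D3:**
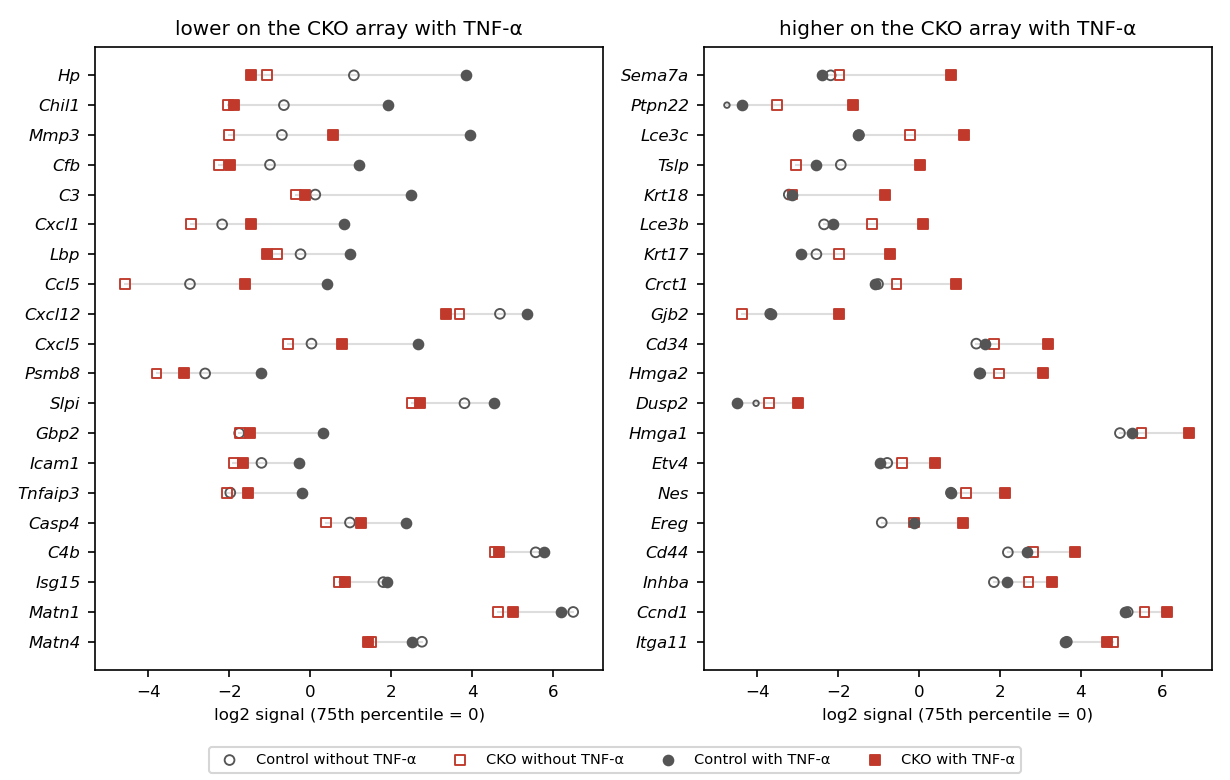
The x axis is the log2 signal, 0 being the array's 75th percentile, of 20 genes lower (left) and 20 genes higher (right) on the array labelled CKO when TNF-α was present, with grey circles for Control, red squares for CKO, filled symbols for TNF-α, and small symbols where a probe was not well above background. In the left panel the filled circle (Control with TNF-α) is highest except for Matn1 and Matn4, where the open circle is; in the right panel the filled square (CKO with TNF-α) is highest except for Itga11, where the open square is.

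The genotype difference without TNF-α was read from the other 2 arrays and shares no array with the one above. Among the 12893 genes that passed the background filter in all 4 arrays, 31 were lower in both pairs (0.24%) and 24 were higher in both (0.186%), together 55 genes. Outside patches on all 4 arrays, 22 of 9330 were lower in both (0.236%), 18 were higher in both (0.193%), and only Tslp was past the limit in opposite directions. Across these 9330 genes the Pearson correlation of the pairs was 0.52 and the Spearman correlation 0.42. Genes are not independent replicates, and the pairs share the genotypes and the difference in sex-linked genes. Of the 58 genes that were lower with TNF-α and read on all 4 arrays, 54 were also below 0 without it, with a median of -0.76. Of the 75 higher genes, 69 were above 0 without it, with a median of 0.64. These 58 and 75 genes lie outside patches on all 4 arrays. The shares of all 9330 genes below and above 0 without TNF-α are not given here. How far these counts depart from those of any other genes was therefore not shown.

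Genes lower in both pairs included Rflna, a regulator of actin filaments in cartilage, at -1.51 with TNF-α and -2.14 without, and the serine protease Htra4 at -1.97 and -1.45, although Htra4 was at -0.95 with TNF-α under normexp. Among genes higher in both pairs, the carbonic anhydrase Car3 was at 0.340 and 1.17 without TNF-α and at 0.164 and 0.662 with it (1.78 and 2.02). The homeobox gene Gsc was at 0.407 and 1.22 without TNF-α and at 0.421 and 1.26 with it, a difference of 1.59 and 1.58 that was the same with or without TNF-α. Syt10 was at 1.23 without TNF-α and 1.40 with it, Klk10 at 1.24 and 1.43, and Glipr1 at 1.55 and 1.31. By contrast, Gbp2, Tnfaip3 and Krt18 differed by 0.03, -0.08 and 0.09 without TNF-α, within the technical SD, and Sema7a by 0.22.

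**Figure D4:**
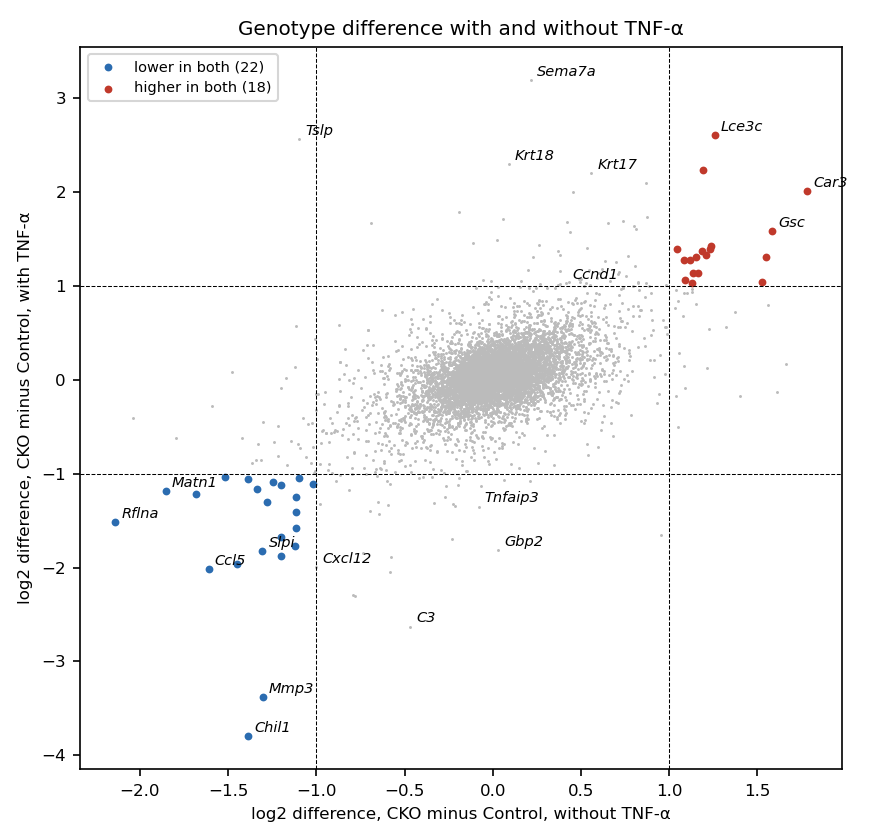
The x axis is the log2 difference CKO minus Control without TNF-α and the y axis the same with TNF-α, for the 9330 autosomal genes that passed the background filter everywhere and lay outside patches; dashed lines mark the limit of 1. The 22 genes lower in both pairs (blue) include Chil1, Mmp3 and Matn1, the 18 higher in both (red) include Lce3c and Car3, and Tslp alone lies past the limit in opposite directions.

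Markers of other cell types were read beside these groups. The muscle genes Myod1, Myog and Pax7 and the endothelial genes Tek and Tie1 were not well above background on any array. Of 16 leukocyte genes read, 1 was lower (Cd74, its spot in a patch on the Control array with TNF-α), 0 were higher and the median was -0.04. The summed signal of all 23 leukocyte genes measured was 53.3 on the Control array and 49.8 on the array labelled CKO with TNF-α, and 53.6 and 56.5 without it. Of 6 adipocyte genes, 2 were lower and 1 higher, with a median of -0.13; among the 4 that passed the background filter on all arrays, 0 were lower, 1 was higher and the median was 0.22. The adipsin gene Cfd was at 0.525 and 0.0307 without TNF-α and at 0.262 and 0.0474 with it (-2.46, or -1.28 with normexp), and it was not well above background on the array labelled CKO without TNF-α; Adipoq was at -2.30 and Pparg at 1.26, each with at least 1 spot in a patch. The summed signal of all 9 adipocyte genes measured was 7.07 and 8.43 with TNF-α and 7.19 and 7.996 without it. Of 4 endothelial, 3 muscle, 3 erythroid and 5 tendon and osteoblast genes read, 0 passed the limit, with medians of 0.05 (-0.02 without scaling), 0.41, -0.07 and 0.25. Over all the 10, 12, 5 and 8 genes measured, the summed signals were 21.2 and 23.6, 2.38 and 3.39, 0.588 and 0.558, and 46.5 and 54.7 on the Control array and the array labelled CKO with TNF-α. Without TNF-α the sums were 21.6 and 20.3, 2.64 and 3.59, 0.589 and 0.583, and 41.3 and 45.2. The part of these cell types in the differences above was not tested.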

How the data were processed

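The authors deposited spot intensity values from Agilent Feature Extraction 10.10.1.1, per the submitters' processing notes, for 4 arrays with 59305 transcript spots each. The scanner software had subtracted background and flagged outliers, which were left out (138 to 225 spots per array). They also deposited a table of the processed intensity times 1 factor per array (1.77 to 1.83), whose basis is not stated. From the processed intensity, log2 values minus each array's 75th percentile (611, 633, 615 and 589 units for Control and CKO without, then with TNF-α) were averaged over spots, and each gene was read from the probe that was brightest on average. Accessions matched symbols of RefSeq's GRCm38.p6 table for 27235 of 55681 probes; the array files cite mm9 instead, so coordinates were not combined. Of the 19818 autosomal genes, 1061 were well above background on 1 of the 2 arrays only and 5307 on neither. For the former, bounds ("at least") took as the dim value the faintest signal that passed the background filter on that array, or the probe's own if higher. A patch spot had 3 or more such neighbours among the 54 within 5 rows and 2 columns: spots at least 2-fold brighter on that array than on each other array. The members and gene lists (28, plus 2 assembled after the values were seen) were chosen with earlier results of these data known. Named genes were, per list, up to 4 past the limit by size and 2 others by signal, the 5 largest rises and falls, up to 6 per direction in both genotype pairs, and 7 genes of the study; others were named after their values were seen. Alternatives covered scaling (none, quantile, the authors' table), normexp background, filter, limit, probe summary and patches. The selection was run on simulated spots with known changes, all past the limit. Neither patches among these spots nor spread between cultures was simulated, so this is no check of the calls above. Python 3.11.15, numpy 2.4.6, pandas 2.3.3, matplotlib 3.10.9 and R 4.3.3 with limma 3.58.1 were used. Values of some genes are not reported here.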

Additional observations from a re-analysis of the deposited data

Results flagged for a closer look

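Sex-linked genes lie outside the autosomal comparison and differed between the arrays with TNF-α. Xist, made by the inactive X chromosome, had a signal of 0.755 on the Control array and was not well above background on the array labelled CKO, a log2 difference of at most -4.67. The Y-linked genes exceeded their Control values, Ddx3y by 1.70, Eif2s3y by 1.83 and Uty by at least 1.21. Without TNF-α, Ddx3y and Eif2s3y differed by 1.49 and 1.81. Tslp drew attention because its genotype difference was 2.57 with TNF-α and -1.10 without it. The difference between these values was not tested.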

How the results depend on the processing

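No paired analysis was possible because each group has 1 array. The counts of autosomal genes lower, higher and past the limit the same way with and without TNF-α were 168, 120 and 55. They were 93, 55 and 21 with normexp background correction, 462, 453 and 248 with a 1.5-fold limit, and 76, 26 and 5 with a 3-fold limit. When 1 array well above background was enough, 345 genes were lower and 181 higher. Leaving out patches lowered the first count to 86, and leaving out only spots with 6 or more bright neighbours to 101. The share of higher genes among those called was 41.7%, and 56.3% and 54.1% under these patch rules. With normexp, the medians were -0.80 for acute-phase and complement genes and -0.33 for interferon genes. With all 4 arrays well above background, the adipocyte median was 0.22, with the sign turned. Apart from these 3, the 249 other medians of the 28 lists moved by less than the technical SD, as did 329 values of single genes, while 35 moved by more and 0 changed sign past the limit. For the 2 lists assembled after the values were seen, normexp moved the medians to 0.83 (keratinocyte) and 0.57 (ERK feedback). With normexp, Htra4 (-0.95), Ifit1 (-0.55), Itga2 (0.54), Parp14 (-0.87), Psmb9 (-0.73), Sfrp1 (-0.62), Sfrp5 (-0.53) and Spry4 (0.58) were short of the limit. Itga11 was short of it with normexp, with quantile normalization, without scaling and in the authors' table (0.96 to 0.98), and so were Runx1 (-0.88) and Isg15 (-0.99) as the mean of their probes. Limits and filters set by construction how many genes can pass, and the cause of the other moves was not tested. Without scaling, every difference is lower by the same amount, and Ccnd1, Dusp6, Itga11, Ptgs2 and Traf1 are then short of the limit. Lcn2 and Vcam1, otherwise just short of the limit, then pass it as lower genes. Normexp also moved, past 1.5-fold, Psmb8 to -1.27, Cfb to -2.57, Sema7a to 2.53, Krt18 to 1.62 and Tslp to 1.94. Probes not well above background on an array give bounds only.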

Other observations

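Other gene groups are given here beside the median of all genes, 0.05. Hypoxia and glycolysis genes had a median of -0.22, with 1 of 26 lower (Car9 at -1.28, its spot in a patch on the array labelled CKO with TNF-α), 0 higher and 22 below 0. Across the alternatives between 18 (of 22 read) and 23 (of 26) were below 0. Hif1a was at -0.35, Vegfa at -0.33, and the glycolytic genes Aldoa and Gapdh at -0.04 and 0.04. Gapdh was between -0.27 and 0.01 by its other probes. Of the 16 genes of the unfolded protein response and the 21 antioxidant, metallothionein and zinc importer genes, 0 passed the limit, with medians of -0.05 and 0.10. Hspa5, the main chaperone of the endoplasmic reticulum, had signals of 114 and 114 with TNF-α, and Mt1 and Mt2, which bind zinc, were at 0.10 and -0.10. In prostaglandin and nitric oxide synthesis, 1 of 14 was higher, Ptgs2 (COX-2) at 1.04, some of its 10 spots lying in patches, and the median was 0.12. Without scaling, in the authors' table or with normexp, 0 were higher. Ptges was at 0.00 by its brightest probe and at -0.34 by the other, and Ptgis was at -0.29.

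Of 34 BMP, TGF-β and WNT genes, 3 were lower and 1 higher, with a median of 0.05 (-0.02 without scaling). The lower genes were all secreted WNT antagonists of 1 family, Sfrp2 at -3.63 (its spot in a patch on the Control array with TNF-α), Sfrp5 at -1.04 and Sfrp1 at -1.03. Sfrp5 and Sfrp1 were short of the limit at -0.53 and -0.62 with normexp and at -0.93 and -0.89 with quantile normalization. The higher gene was Inhba, a subunit of activin, with signals of 3.60 and 6.51 without TNF-α and of 4.54 and 9.73 with it (2.14-fold), its spot lying in a patch on the Control array without TNF-α. Of 24 FGF and insulin-like growth factor genes, 1 was lower, Igfbp2 at -1.47 with TNF-α and -2.42 without, where its spot lies in a patch on the Control array, and 1 higher, Spry4; the median was -0.02 (0.05 with normexp). Of 13 imprinted and 26 limb position genes, 0 passed the limit, with medians of -0.11 and 0.11, and the hindlimb factor Pitx1 was at 0.05.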
